A study of Homo sapiens with 8 samples.

Results

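Open chromatin was examined at 10 genes of the insulin-like growth factor (IGF) system and of the imprinted chromosome 11p15.5 region: IGF2, H19, CDKN1C, KCNQ1, IGF1R, IGF2R, IGF2BP1, IGF2BP2, IGF2BP3 and IGFBP2. A peak was assigned to one of these genes when its summit lay inside the gene, or lay within 100 kb of the gene's ends and nearer to it than to any protein-coding gene. By that rule 57 of 61016 peaks belonged to the 10 genes in the vehicle list, 41 of 41086 in the EZH2i list, 50 of 47161 in the CBPi list and 44 of 51095 in the FSK list. Overlapping peaks of the 4 lists merged into 64 regions, numbered below along the chromosome within each gene. Of these regions, 28 held a peak in all 4 lists, 11 in 3 lists, 11 in 2 lists and 14 in 1 list.

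The data are ATAC-seq, which reads open chromatin from the sites where the transposase Tn5 can insert adapters, in NCI-H295R, a human adrenocortical carcinoma cell line. Each of the 4 groups had 2 libraries labelled as biological replicates and 1 deposited peak list. Vehicle cells received DMSO for 96 h. EZH2i cells received EPZ-6438, an inhibitor of the histone H3 lysine 27 methyltransferase EZH2, at 62 µM for 96 h. CBPi cells received PRI-724, labelled as an inhibitor of the coactivator CBP, at 26 µM for 96 h. FSK cells received vehicle for 48 h and then forskolin, which activates adenylyl cyclase and raises cAMP, at 10 µM for 48 h, so their exposure to drug was shorter. All groups are the same single line, and the labels give the doses of both inhibitors as IC-50 doses.

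IGF2 is a fetal growth factor expressed from the paternal allele, and adrenocortical carcinomas often express it at high levels. The neighbouring H19 makes a non-coding RNA from the maternal allele, and a control region between them, where CTCF binds the unmethylated maternal copy, keeps IGF2 and H19 on opposite alleles. A separate control region inside KCNQ1 holds the promoter of the antisense RNA KCNQ1OT1 and governs CDKN1C, a maternally expressed inhibitor of cyclin-dependent kinases. IGF2 signals through the tyrosine kinase receptor IGF1R, is cleared by the scavenging receptor IGF2R, and is bound outside the cell by proteins such as IGFBP2. IGF2BP1, IGF2BP2 and IGF2BP3 are RNA-binding proteins named for their binding of IGF2 mRNA. None of RNA, methylation or allele was measured in these files.

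The promoter sequences of 5 of the genes show which listed starts lay in open chromatin and which did not, and how their base composition differs. RefSeq windows on GRCh38.p14 (the same coordinate system as hg38) run from 250 bases before to 50 bases after a listed start. They are written 5′ to 3′ on the gene's strand, with capitals marking each CG dinucleotide.
H19, chr11:2001217-2001516, minus strand: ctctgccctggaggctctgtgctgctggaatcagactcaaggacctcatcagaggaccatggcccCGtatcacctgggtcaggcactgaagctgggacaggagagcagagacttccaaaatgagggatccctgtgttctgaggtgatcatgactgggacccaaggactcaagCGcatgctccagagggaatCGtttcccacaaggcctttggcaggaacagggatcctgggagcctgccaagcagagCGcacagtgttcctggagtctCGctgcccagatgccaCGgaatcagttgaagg
IGF1R, chr15:98648289-98648588, plus strand: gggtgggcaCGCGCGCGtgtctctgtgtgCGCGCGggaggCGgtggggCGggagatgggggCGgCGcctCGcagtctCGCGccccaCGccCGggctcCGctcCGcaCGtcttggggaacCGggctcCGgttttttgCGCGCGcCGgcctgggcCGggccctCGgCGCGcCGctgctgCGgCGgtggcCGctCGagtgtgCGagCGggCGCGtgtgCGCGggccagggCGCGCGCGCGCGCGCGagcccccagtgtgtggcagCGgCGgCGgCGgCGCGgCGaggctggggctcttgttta
IGF2R, chr6:159968832-159969131, plus strand: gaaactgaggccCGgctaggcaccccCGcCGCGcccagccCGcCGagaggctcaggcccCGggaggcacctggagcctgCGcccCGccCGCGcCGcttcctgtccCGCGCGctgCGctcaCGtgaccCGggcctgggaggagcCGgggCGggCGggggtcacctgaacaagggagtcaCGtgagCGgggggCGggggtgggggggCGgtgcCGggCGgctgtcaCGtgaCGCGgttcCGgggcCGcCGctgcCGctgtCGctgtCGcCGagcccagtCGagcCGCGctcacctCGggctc
IGF2BP3, chr7:23470442-23470741, minus strand: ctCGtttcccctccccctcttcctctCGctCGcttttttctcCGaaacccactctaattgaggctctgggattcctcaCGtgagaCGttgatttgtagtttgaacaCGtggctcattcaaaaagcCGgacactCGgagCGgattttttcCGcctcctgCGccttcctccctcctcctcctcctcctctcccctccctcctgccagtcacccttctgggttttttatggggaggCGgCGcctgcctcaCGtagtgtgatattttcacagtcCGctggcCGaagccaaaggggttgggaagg
IGFBP2, first listed start, chr2:216632578-216632877, plus strand: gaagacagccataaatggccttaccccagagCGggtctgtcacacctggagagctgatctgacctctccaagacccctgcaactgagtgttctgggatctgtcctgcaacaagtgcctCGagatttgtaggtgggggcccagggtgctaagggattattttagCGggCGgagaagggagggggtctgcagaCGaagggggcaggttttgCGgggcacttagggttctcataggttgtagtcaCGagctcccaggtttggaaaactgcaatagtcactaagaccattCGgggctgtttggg
IGFBP2, second listed start, chr2:216633170-216633469, plus strand: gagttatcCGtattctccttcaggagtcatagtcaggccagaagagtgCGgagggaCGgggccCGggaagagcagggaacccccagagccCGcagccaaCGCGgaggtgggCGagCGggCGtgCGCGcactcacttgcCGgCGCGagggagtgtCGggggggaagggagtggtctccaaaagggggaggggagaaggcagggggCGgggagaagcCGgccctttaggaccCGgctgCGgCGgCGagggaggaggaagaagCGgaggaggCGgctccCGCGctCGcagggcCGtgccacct

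The starts of IGF1R, IGF2R and IGF2BP3 and the second listed start of IGFBP2 lay under a peak in all 4 lists. The H19 start and the first listed start of IGFBP2 lay under none, nor did the third listed start of IGFBP2, not printed, whose window holds 6 CG dinucleotides. The IGF1R window holds 55 CG dinucleotides, the IGF2R window 41, the IGF2BP3 window 17 and the second IGFBP2 window 28, against 6 for H19 and 8 for the first IGFBP2 window. Over 34961 listed starts of all genes, 48.2% lay under a vehicle peak, with a median of 27 CG dinucleotides in the windows of covered starts and 4 in those of uncovered starts. The printed starts followed the contrast of starts in general, with the IGF2BP3 window between the medians. IGF2BP2 has 2 listed starts: the one with 38 CG dinucleotides was covered in all 4 lists, and the one with 3 was covered in none. The Sp1 motif GGGCGG, searched on both strands as were all motifs here, occurred 2 times in the IGF1R window, 6 times in IGF2R, 7 times in the first IGF2BP2 window and 1 time in each of the 2 printed IGFBP2 windows. It was not found in the H19 and IGF2BP3 windows, and 45% of 35116 windows held it. Neither the CRE letters TGACGTCA, held by 1.85% of windows, nor the SF1 letters TCAAGGNCA, held by 1.18%, were found in any window of these genes.

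Across the 10 genes, more peaks were lost than gained with each treatment, and the lost peaks were mostly small. A vehicle peak is called lost when no base of it lay under a peak of the treated list, and a treated peak is called gained when no base of it lay under a vehicle peak. In the EZH2i comparison 21 of the 57 were lost (36.8%, Wilson 95% interval 25.5 to 49.8), against 37.7% of all vehicle peaks. With CBPi, 13 were lost (22.8%, 13.8 to 35.2), against 30.6%. With FSK, 18 were lost (31.6%, 21 to 44.5), against 30.2%. In the full lists these shares lie at or near the level of the whole list, and each interval contains it. With the lists cut by length or by area, given below, the EZH2i and FSK shares lay above the whole list and the CBPi share below it. The intervals count each peak as an independent draw and reflect counting error alone, and with 1 list per group there is no replicate spread and no test. In bulk cells, fewer cells with an open site and less opening per cell cannot be told apart.

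Gained peaks at the 10 genes were few. The EZH2i list had 2 of 41 (4.88%, 1.35 to 16.1; whole list 6.98%), the CBPi list 3 of 50 (6%, 2.06 to 16.2; whole list 10.7%) and the FSK list 4 of 44 (9.09%, 3.59 to 21.2; whole list 15.9%). IGF1R alone supplied 24 of the 57 vehicle peaks. Without it, 13, 9 and 12 of 33 vehicle peaks were lost with EZH2i, CBPi and FSK. Cutting every list to its 41086 peaks of largest area gave 10 of 42 lost with EZH2i (23.8%; whole list 17.7%), 6 of 42 with CBPi (14.3%; whole list 18%) and 16 of 42 with FSK (38.1%; whole list 20.7%). The gained peaks became 6 of 41 with EZH2i (14.6%; whole list 16.7%), 3 of 41 with CBPi (7.32%; whole list 18%) and 3 of 30 with FSK (10%; whole list 19.8%). Keeping only peaks with an area of at least 400 gave 20 of 40 lost with EZH2i (50%; whole list 37.6%), 10 of 40 with CBPi (25%; whole list 28%) and 20 of 40 with FSK (50%; whole list 30.6%). It moved the gained shares to 2 of 24 with EZH2i (8.33%; whole list 4.87%), 4 of 36 with CBPi (11.1%; whole list 9.91%) and 1 of 22 with FSK (4.55%; whole list 12.6%).

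**Figure D1:**
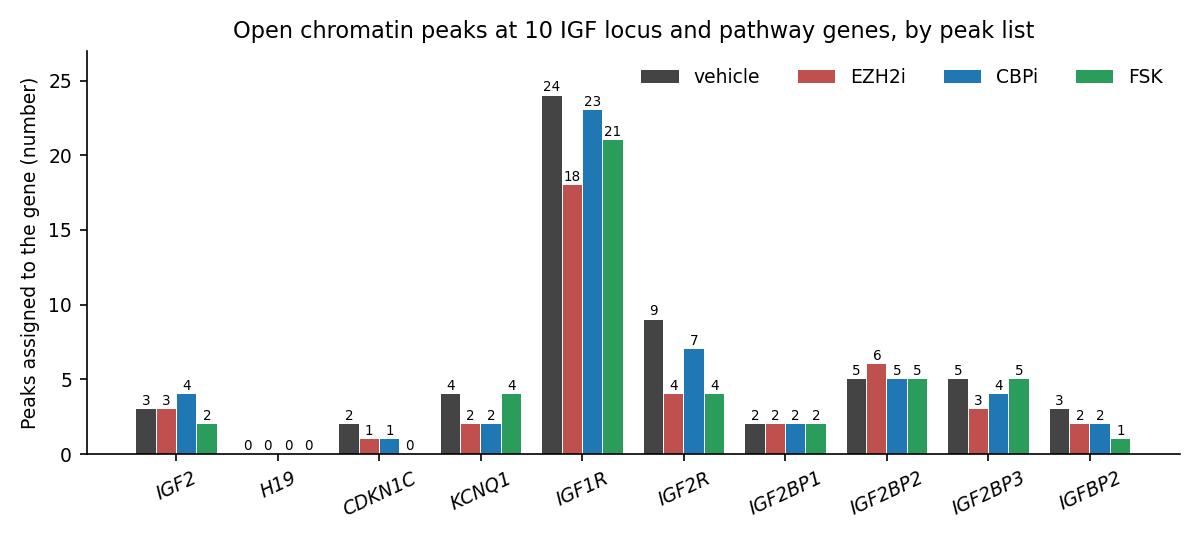
Number of peaks assigned to each of the 10 genes (horizontal axis), with 1 bar per peak list in each gene and the number printed above it. IGF1R holds the most peaks in every list, H19 holds none in any list, and KCNQ1 goes from 4 vehicle peaks to 2 with each inhibitor and 4 with FSK.

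The area of a peak is the authors' area of significance under it, and it is described here by the percentage of that list's peaks with a larger area (the area rank, small for a large peak). Areas of different lists were not set against each other, apart from the alternative above that puts the same minimum of 400 on lists of unknown depth. The median area of the vehicle list was 581.4. Of the lost vehicle peaks at the 10 genes, 20 of 21 with EZH2i, 13 of 13 with CBPi and 14 of 18 with FSK were below it. In the whole list, 20664 of 22990, 17010 of 18673 and 16652 of 18455 lost peaks were below it. Taking for each of the 57 peaks the share lost in its own area decile gives 21.07 lost peaks for EZH2i, 16.87 for CBPi and 16.63 for FSK, beside the 21, 13 and 18 counted.

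**Figure D2:**
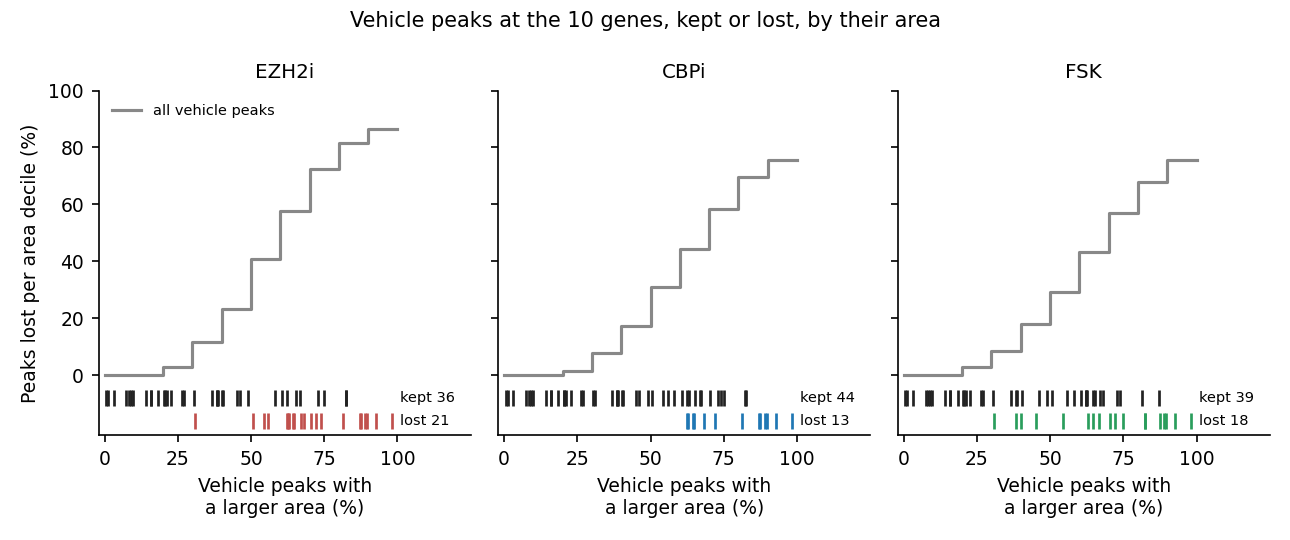
Each panel takes 1 treatment; the horizontal axis is the percentage of vehicle peaks with a larger area, so large peaks are at the left. The grey line is the percentage of all vehicle peaks lost in each area decile (vertical axis), and the 2 rows of ticks under 0 are the kept and lost vehicle peaks of the 10 genes. The grey line rises from 0.0164% to 86.5% with EZH2i, from 0.0328% to 75.6% with CBPi and from 0% to 75.5% with FSK, and the lost ticks sit mostly at the right.

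Whether a peak was lost with 1 treatment or with several differed between genes. Of the 57 vehicle peaks, 29 were kept with all 3 treatments (50.9%; whole list 52.6%) and 7 were lost with all 3 (12.3%, 6.08 to 23.2; whole list 17.9%). A further 7 were lost with FSK and kept with both inhibitors (12.3%, 6.08 to 23.2), against 4.94% of the whole list. They were IGF2 region 3, CDKN1C region 1, IGF1R regions 7 and 15, IGF2R regions 5 and 6 and IGFBP2 region 1, so they came from 5 genes on 4 chromosomes. Loss with both inhibitors and not FSK took 6 peaks (10.5%; whole list 7.94%), of which 3 were in KCNQ1. No peak was lost with CBPi alone, where the whole list had 3.13%. These combinations share the vehicle list, and they were counted without a test.

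Most gene-end peaks of the full lists were kept. Within 1 kb of an annotated end, 9 of the 10 genes had a peak in the vehicle list and 8 of 10 in each treated list. KCNQ1 was without one in the EZH2i and CBPi lists and CDKN1C in the FSK list. This order turned round with lists of equal length, where CDKN1C, KCNQ1 and IGF2BP1 dropped out of the vehicle list: 6 of 10 genes had a gene-end peak there, 8 with EZH2i, 8 with CBPi and 7 with FSK. Among 13509 protein-coding genes with such a peak in the vehicle list, 4.6% had none with EZH2i, 2.35% with CBPi and 4.94% with FSK. H19, which had none in the vehicle list, acquired none, and 2.09%, 3.99% and 2.89% of the 6465 coding genes that lacked one did. All of these counts take a peak at either end of a gene. IGFBP2 had one at its low end in every list, but its high-end vehicle peak was in no treated list. Of the vehicle peaks whose summit lay farther than 1 kb from both ends, 20 of 50 were lost with EZH2i, 12 of 50 with CBPi and 17 of 50 with FSK, near the 18.77, 14.99 and 14.78 that their area deciles give.

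At IGF2 (chr11:2129117-2149566, read toward lower coordinates) both inhibitors kept every vehicle peak, whereas FSK lost 1 of 3, and the area deciles give 1.01 with EZH2i, 0.77 with CBPi and 0.75 with FSK. The peaks lay in the middle of the annotated span and at its low-coordinate end, which is the 3′ side. Neither the high-coordinate end nor the span of INS, the insulin gene next to it, held a peak in any list. No start of IGF2 was listed among the promoter windows, so which of its peaks lie at a promoter was not examined. Region 1, just beyond the low end at 2127468 to 2129112, was 1645 bp wide in the vehicle list, 655 bp with EZH2i, 1228 bp with CBPi and 1196 bp with FSK. Its area rank was 21.3% in the vehicle list, 54.4% with EZH2i, 53.3% with CBPi and 30.7% with FSK. The 3′ peak was thus widest and ranked nearest the top without drug.

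The other IGF2 peaks lay inside the gene, between MIR483, a microRNA gene within IGF2 at 2134134 to 2134209, and the antisense gene IGF2-AS, which starts at 2140512 in the table. Region 3 (2137032 to 2138252) was 711 bp wide in the vehicle list, 933 bp with EZH2i and 1212 bp with CBPi, and it was absent with FSK. Its area rank was 66.8% in the vehicle list, 49.8% with EZH2i and 38.9% with CBPi. Region 3 is among the 7 peaks that only the FSK list lacked. Region 4 (2138851 to 2140051) was 859 bp wide in the vehicle list, 388 bp with EZH2i, 1201 bp with CBPi and 429 bp with FSK, with area ranks of 58.1%, 69.3%, 39.1% and 86.7%. In the CBPi list both internal peaks were therefore wider than in any other list, while the 3′ peak was narrower than in the vehicle list. Region 2 (2135838 to 2136198), 361 bp wide, was gained with CBPi and had an area rank of 95.6%. With lists of equal length FSK lost 2 of the 3 IGF2 peaks, and region 2 was not in the CBPi list.

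H19 (chr11:1995176-2001266) had no peak in any list, either inside the gene or assigned to it, and it is the only one of the 10 genes with none. The nearest peak on the low-coordinate side ended 77274 bp away in the vehicle list, 77242 bp with CBPi and 77281 bp with FSK, and 112449 bp away with EZH2i. On the high side the nearest was IGF2 region 1, between 126202 bp (vehicle) and 126853 bp (EZH2i) away. From H19 up to IGF2 region 1, which lies just before IGF2, no list held a peak, and this interval contains the shared control region. The stretch without peaks around H19 was 209565 bp in the vehicle list, 245391 bp with EZH2i, 209635 bp with CBPi and 209710 bp with FSK. Of the spans between neighbouring peaks, 3.09% were at least as long in the vehicle list and 5.38% in the EZH2i list. The shares were 5.71% in the CBPi list and 4.58% in the FSK list. They count spans, and long spans take up a larger share of the bases, which was not measured. The annotated span of MRPL23 covers H19 in the table.

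CDKN1C (chr11:2883218-2885775) had 2 small vehicle peaks. FSK lost both and each inhibitor lost 1, where the area deciles give 1.33 with FSK, 1.59 with EZH2i and 1.34 with CBPi. Region 1 at its high-coordinate end (2885552 to 2886190) was 408 bp wide in the vehicle list, 383 bp with EZH2i and 592 bp with CBPi, and absent with FSK. Its area rank was 75% in the vehicle list, 88.6% with EZH2i and 59.4% with CBPi. The only gene-end peak of this cell cycle inhibitor was thus small wherever it was called. Region 2, 2722 bp beyond that end, was 214 bp wide in the vehicle list with an area of 206.6, near the smallest in the list, and it was absent from all treated lists. With lists of equal length no CDKN1C peak of the vehicle list remained, and region 1 then counted as gained with EZH2i and with CBPi.

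KCNQ1 (chr11:2445008-2849105), a potassium channel gene, had 4 vehicle peaks, of which each inhibitor lost 3 and FSK none. Region 1 at the low end (2444805 to 2445408) was 384 bp wide in the vehicle list and 604 bp with FSK, and absent with both inhibitors. Region 2, inside the gene, was 271 bp wide in the vehicle list and 234 bp with FSK. Region 5, also inside, was 329 bp wide in the vehicle list and 319 bp with FSK. All of these were small, with vehicle area ranks of 87.2%, 81.3% and 68.1%, and from their area deciles 2.21 of the 4 vehicle peaks would be lost with EZH2i, 1.84 with CBPi and 1.79 with FSK. Once small peaks were removed, by equal list length or by an area of at least 400, a single KCNQ1 vehicle peak was left and neither inhibitor lost it. EZH2i gained region 4 (2778557 to 2779148), 592 bp wide with an area rank of 90.5%.

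The KCNQ1 peak that stayed in every list lay at the high-coordinate end of KCNQ1OT1 (2608328 to 2699994), the end where that antisense RNA begins. Its summit was 194 bp from this end in the vehicle list, 192 bp with EZH2i, 111 bp with CBPi and 192 bp with FSK. The peak was 1193 bp wide in the vehicle list, 1220 bp with EZH2i, 1172 bp with CBPi beside a second peak of 365 bp, and 1219 bp with FSK. Its area rank was 15.9%, 20.5%, 19.4% and 20.2%. The peak at the KCNQ1OT1 end was thus similar in width and rank in all 4 lists, and it was the only large peak within KCNQ1. The lists do not tell 1 open allele from 2.

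**Figure D3:**
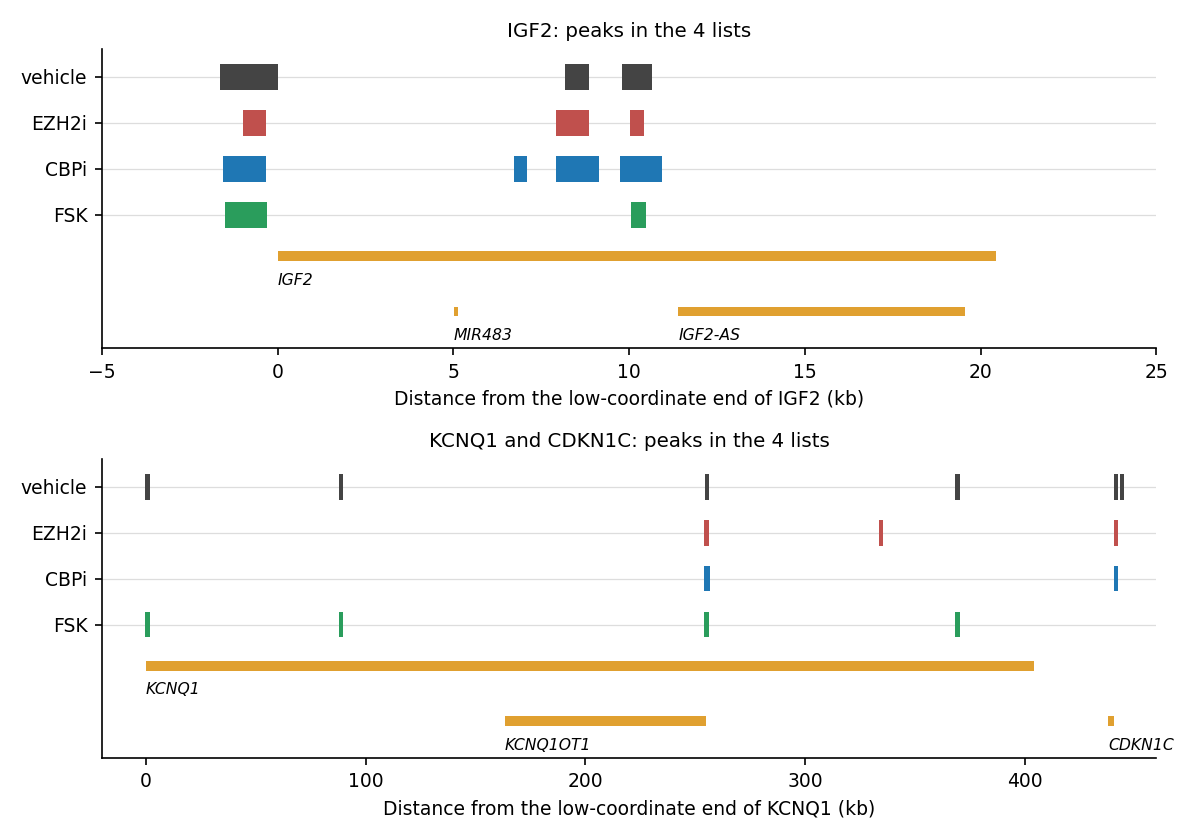
Peaks of the 4 lists (rows) at IGF2 (upper panel) and across KCNQ1 and CDKN1C (lower panel), by distance in kb from the low-coordinate end of IGF2 or KCNQ1; orange bars are annotated genes, and short peaks are drawn at a minimum width. IGF2 region 3 is missing from the FSK row, and the peak at the high end of KCNQ1OT1 is in all 4 rows.

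IGF1R (chr15:98648539-98964530), the receptor through which IGF2 signals, carried the most peaks of the 10 genes: 24 in the vehicle list, 18 with EZH2i, 23 with CBPi and 21 with FSK. EZH2i lost 8 of 24 (33.3%, 18 to 53.3), CBPi 4 (16.7%, 6.68 to 35.9) and FSK 6 (25%, 12 to 44.9). From the area deciles, 6.24, 4.86 and 4.84 would be lost. The counts lie within 2 peaks of those values, and with lists of equal length EZH2i lost 4, CBPi 3 and FSK 7 of 20 (whole list 17.7%, 18% and 20.7%). The peak over the IGF1R start, whose sequence is given above, was 2603 bp wide in the vehicle list, 2611 bp with EZH2i, 2607 bp with CBPi and 2602 bp with FSK. Only 0.611%, 0.511%, 0.486% and 0.701% of the peaks of these lists had a larger area. It was the highest-ranking peak at the 10 genes in each list, and its borders hardly moved.

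Inside IGF1R, the second peak from the start, region 3, stayed between 1180 bp (FSK) and 1262 bp (CBPi) wide. Region 19, 216949 bp into the gene at its vehicle summit, held the second largest IGF1R peak by vehicle area. It was 1 peak of 1726 bp in the vehicle list and of 1615 bp with FSK, and it was divided into 1245 and 256 bp with EZH2i and into 1268 and 253 bp with CBPi. The large internal peaks were kept with every treatment. Among the lost peaks, those of largest area were regions 24, 26 and 23 with EZH2i, regions 23, 25 and 20 with CBPi and regions 7, 15 and 23 with FSK. Region 23 and region 20 were absent from all treated lists, as was region 8. Region 7 (98753822 to 98754676), with a vehicle area of 799.8, was 854 bp wide in the vehicle list, 485 bp with EZH2i and 777 bp with CBPi, and absent with FSK. Region 15 (98805459 to 98806036), with a vehicle area of 661.9, was 577, 218 and 549 bp wide in these lists and absent with FSK. Both were above the vehicle median in area, unlike all peaks lost with CBPi. FSK gained regions 12 (560 bp) and 14 (367 bp), and CBPi gained region 16 (307 bp).

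One IGF1R region fell on the edge of the 100 kb rule. Region 1 held a peak in all 4 lists, with the summit 99678 bp (EZH2i), 99686 bp (CBPi) and 99689 bp (FSK) from the gene and, in the vehicle list, 100113 bp from it. The vehicle peak, 1430 bp wide with an area rank of 5.98%, is therefore not among the 57, although the treated peaks are counted.

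**Figure D4:**
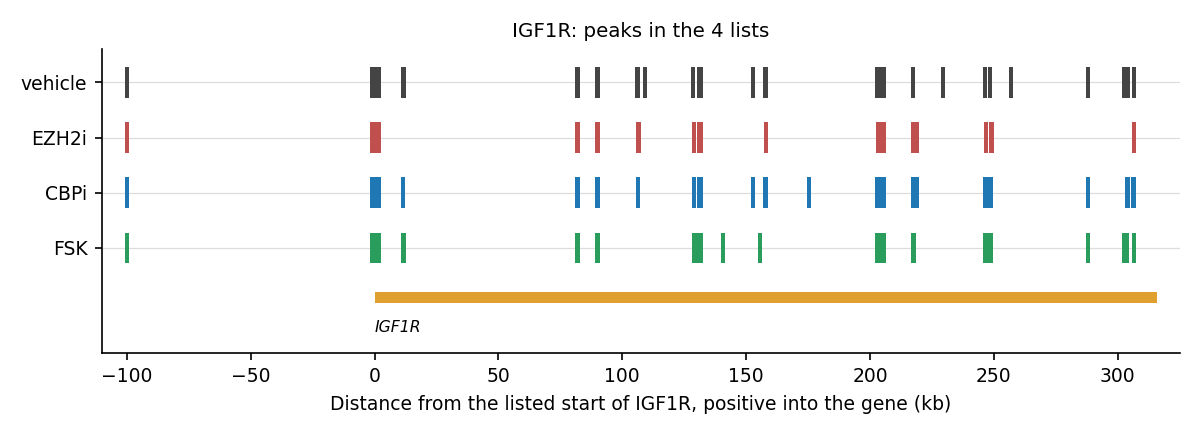
Peaks of the 4 lists (rows) along IGF1R, by distance in kb from its listed start, positive into the gene (orange bar); short peaks are drawn at a minimum width, and the vehicle peak whose summit is 100113 bp before the start is drawn although it is outside the rule. The peak at the start is in all 4 rows at nearly the same width, and most peaks missing from a treated row are narrow.

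IGF2R (chr6:159969082-160111504), the receptor that takes IGF2 to the lysosome, had 9 vehicle peaks. EZH2i lost 5, CBPi 2 and FSK 5, where the area deciles give 4.12, 3.36 and 3.28. The peak over the IGF2R start was 1817 bp wide in the vehicle list, 1758 bp with EZH2i, 1770 bp with CBPi and 1723 bp with FSK, with area ranks of 7.48%, 12.6%, 12% and 11.1%. Like the IGF1R start it was kept with little change in width. Region 3 (159977064 to 159978029), inside the gene, went from 966 bp in the vehicle list to 635 bp with EZH2i, 629 bp with CBPi and 553 bp with FSK, and its area rank from 18.4% to 33.1%, 37.5% and 78.8%. This peak was narrower and ranked lower in every treated list, and most so with FSK.

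The IGF2R peak upstream of the start, region 1 (159952203 to 159953045), was 831 bp wide in the vehicle list and 800 bp with CBPi, and it was lost with EZH2i and FSK. Its vehicle area of 1026.5 was the largest of any peak lost at the 10 genes. EZH2i also lost regions 8 and 7, its next largest here, both inside the gene. FSK lost regions 8 and 5 next, and the losses with CBPi were regions 7 and 9. No IGF2R peak was gained in any list. Regions 5 and 6 were lost with FSK alone, and region 6 was the nearest peak to AIRN, the antisense RNA gene inside IGF2R, 3805 bp from it in the vehicle list. No list had a summit inside AIRN.

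IGF2BP1 (chr17:48996558-49056145) had 2 peaks, and all 3 treatments kept both. Region 1, at its low-coordinate end (48995872 to 48996875), was 692 bp wide in the vehicle list, 980 bp with EZH2i, 964 bp with CBPi and 960 bp with FSK. Its area rank was 73% in the vehicle list, 43% with EZH2i, 41.1% with CBPi and 67.2% with FSK. This peak was wider and ranked nearer the top in every treated list, with the smallest change in rank with FSK. Region 2, 20265 bp into the gene at its vehicle summit, was 505 bp wide in the vehicle list, 633 bp with EZH2i, 423 bp with CBPi and 514 bp with FSK and showed no shared direction. At an area of at least 400 only region 2 entered from the vehicle list, and it was lost with EZH2i and with FSK.

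IGF2BP2 (chr3:185643130-185825042) also kept all of its 5 vehicle peaks with every treatment. The peak over its start was 1386 bp wide in the vehicle list, 1381 bp with EZH2i and 1644 bp with CBPi, next to a second peak of 910, 913 and 775 bp inside the gene. With FSK both were called as 1 peak of 2338 bp. Region 2, inside the gene and second in vehicle area to the start peak, was 697 bp wide in the vehicle list, 438 bp with EZH2i, 592 bp with CBPi and 446 bp with FSK. EZH2i gained region 5 (337 bp) and FSK gained region 3 (285 bp). The EZH2i peak had an area of 200.2, next to the smallest area in the list. At an area of at least 400 in every list, EZH2i lost 4 of the 5 vehicle peaks, CBPi 2 and FSK 3. The whole-list shares at that area were 37.6%, 28% and 30.6%.

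IGF2BP3 (chr7:23310209-23470491, minus strand) had 1 of the largest peaks of the 10 genes over its start, and the lists differed in whether it was whole. It was 1 peak of 3215 bp in the vehicle list and of 3107 bp with CBPi, with area ranks of 1.3% and 0.797%. With EZH2i it was 2 peaks of 1583 and 1240 bp, with ranks of 6.88% and 20.6%, and with FSK 2 peaks of 1580 and 1277 bp, with ranks of 5.41% and 11.8%. The outer borders stayed in place: the whole region ran from 23468654 to 23471868 in the vehicle list and from 23468843 to 23471885 with EZH2i. The break lay between 188 and 409 bp into the gene with EZH2i and between 185 and 378 bp with FSK, so it was in the same place in both and left the start itself, whose sequence is given above, under the larger peak. Region 6, 3933 bp upstream of the start at its vehicle summit, was 1759 bp wide in the vehicle list, 1683 bp with EZH2i, 1965 bp with CBPi and 1065 bp with FSK. EZH2i lost 3 of the 5 IGF2BP3 peaks and CBPi and FSK lost 2 each, near the 2.02, 1.64 and 1.62 given by the area deciles. All lost peaks were small: region 2 (434.3 in vehicle area), region 3 (427.1) and region 5 (230.7). CBPi and FSK both gained region 1 (23349506 to 23349797), 288 and 285 bp wide, inside the gene.

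**Figure D5:**
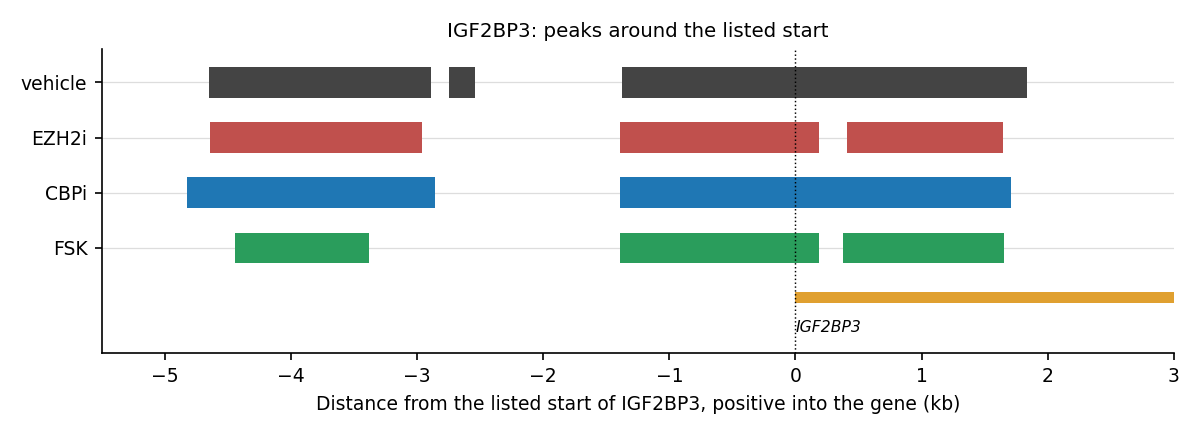
Peaks of the 4 lists (rows) around the listed start of IGF2BP3 (dotted line), by distance in kb, positive into the gene (orange bar). The start lies under 1 peak in the vehicle and CBPi rows, while in the EZH2i and FSK rows a break just inside the gene divides it into 2.

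IGFBP2 (chr2:216632828-216664436), a secreted protein that binds IGF2 and IGF1, had 3 vehicle peaks. EZH2i and CBPi lost 1 each and FSK lost 2, where the area deciles give 1.08, 0.89 and 0.89. Region 2 covered the second listed start, given above, and was 1108 bp wide in the vehicle list, 826 bp with EZH2i, 1005 bp with CBPi and 1043 bp with FSK. Region 1, 59449 bp from the gene in the vehicle list, was 656 bp wide there, 468 bp with EZH2i and 486 bp with CBPi, and absent with FSK. Its vehicle area rank of 40.1% made it 1 of the 4 peaks above the median area that FSK lost, with IGF2R region 1 and IGF1R regions 7 and 15. Region 3, near the high-coordinate end, was a 398 bp vehicle peak that no treated list held.

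To set ranks on 1 footing, the regions with a peak in all 4 lists were ranked again among themselves, 31427 in all and 28 at the 10 genes. A shift of at least 20 percentage points, a size chosen after the values were seen, was counted. With EZH2i 1 region moved nearer the top and 2 moved away, where 5.11% and 5.93% of all regions did. With CBPi the counts were 2 and 1 (7.06% and 7.4%) and with FSK 1 and 3 (7.05% and 6.68%). The 28 regions thus shifted about as often as regions in general, and their median shifts were -1.46, -0.479 and -2.41 points.

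The regions that did shift were few and can be named. IGF2BP1 region 1 moved from 96.5% to 54.4% with EZH2i and to 59.8% with CBPi, and IGF2 region 4 moved from 90.1% to 57.2% with CBPi. IGF2 region 1 went the other way, from 41% to 66.9% with EZH2i and to 74.2% with CBPi. Both inhibitors therefore had the IGF2BP1 end peak higher and the IGF2 3′ peak lower in their lists. IGF1R region 10, inside the gene, moved from 70.2% to 94% with EZH2i and to 38.4% with FSK. The shifts with FSK away from the top were IGF2R region 3 (35.5% to 92.8%), IGF1R region 27 (43.5% to 99%) and IGF2BP2 region 2 (67.3% to 92.4%). Within the whole FSK list, the area rank was 78.8% for IGF2R region 3 and 95.7% for IGF1R region 27, so only the latter was near its foot. Ranked among regions shared by the vehicle and 1 treated list, IGF2 region 3 moved from 89.2% to 53.7% with EZH2i and from 84.5% to 43.9% with CBPi.

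Most kept peaks at the 10 genes were narrower in the treated lists, as were most kept peaks of the whole list. The median of treated over vehicle width was 0.826 with EZH2i (36 peaks), 0.97 with CBPi (44) and 0.889 with FSK (39). Over all kept vehicle peaks it was 0.894, 0.973 and 0.928. Of the kept peaks at the 10 genes, 8 were wider with EZH2i (22.2%, whole list 26%). The counts were 18 with CBPi (40.9%, whole list 42.7%) and 11 with FSK (28.2%, whole list 33.8%), each share a little below that of the whole list. By width rank, 6 of the 28 regions in all 4 lists moved at least 20 points from the top with EZH2i. Of all such regions 8.21% did, and the difference was not tested.

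The wider IGF pathway was taken as 40 further ligands, binding proteins, proteases, adaptors and kinases. None of these genes that had a gene-end peak in the vehicle list was without one in a treated list. Of these genes, 32 had one in the vehicle, EZH2i and FSK lists and 33 with CBPi, where RPTOR, a subunit of mTOR complex 1, had a 402 bp peak that the other lists lacked. Their 227 vehicle peaks were lost at 32.6% with EZH2i (26.8 to 38.9), 28.6% with CBPi (23.1 to 34.8) and 23.8% with FSK (18.7 to 29.7), beside whole-list shares of 37.7%, 30.6% and 30.2%. Gained peaks made up 16.9% (12.2 to 23), 18.2% (13.4 to 24.3) and 24.6% (19.4 to 30.5) of their treated peaks, above the whole-list shares of 6.98%, 10.7% and 15.9%. GRB10, an imprinted adaptor that binds insulin and IGF receptors, supplied much of this: of 58 vehicle peaks EZH2i lost 14, CBPi 25 and FSK 10, where the area deciles give 29.31, 24.04 and 23.66, and 20, 11 and 28 were gained. The 392 bp vehicle peak at the low-coordinate end of GRB10 was absent with CBPi, where the peak at its high end remained. Without GRB10, IGFBP1 and IGFBP3, all on chromosome 7, the lost shares were 36.8%, 23.7% and 27% and the gained shares 7.69% (3.95 to 14.4), 14.8% (9.8 to 21.8) and 18.7% (13.1 to 26), with intervals that contain the whole-list shares for EZH2i, CBPi and FSK. PAPPA, a protease that frees IGF from its binding proteins, lost 7 of 13 peaks with each inhibitor and 2 with FSK (5.46, 4.48 and 4.43 by area decile), and gained 3, 1 and 6. Its relative PAPPA2 lost 4, 5 and 5 of 11 (4.70, 3.82 and 3.77 by area decile) and gained 1, 2 and 4. RPTOR lost 5, 1 and 5 of 11 (4.86, 3.80 and 3.74) and gained 2, 6 and 5.

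Of 10 adrenocortical genes, 7 had a gene-end peak in the vehicle list, 6 with each inhibitor and 8 with FSK, and NR5A1, STAR and CYP17A1 were among them in every list. Of markers of other cells, 2 of 6 fibroblast genes, 1 of 5 endothelial genes and 2 of 5 chromaffin genes had one in every list, and 1 or 2 of 5 immune genes did. Over all coding genes the share was 67.6% in the vehicle list, so the adrenocortical count lies at that level and does not by itself mark the cell type.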

How the data were processed

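Tn5-based libraries (8, 2 per group) were summarised by the authors as 4 peak lists on hg38, and the submitters' processing notes name Bowtie2, Genrich and deepTools 2.0. Their settings, read filters, any Tn5 shift and the way 2 libraries became 1 list remain not given in the sources used here, so depth is unknown. The deposited signal is the area of significance under a peak, the deposited score is its density per base scaled and capped, and the deposited −log10 of the summit p-value was not used for any result. Python 3.11.15 with NumPy 2.4.6 and matplotlib 3.10.9 assigned summits to genes of a RefSeq table of GRCh38.p14 and compared lists by overlap of at least 1 bp, with Wilson 95% intervals. The scripts were tested on toy data with known answers. No genome was used, so exons, introns and UTRs were not annotated. The 10 genes, the pathway lists and the comparisons were chosen with earlier results of these data known. For IGF2, H19 and CDKN1C every peak is described. For the other genes, the gene-end peaks, the 2 largest vehicle peaks and per treatment up to 3 lost and 3 gained peaks of largest area are named, and regions that shifted in rank were named after their values were seen. In the pathway and neighbour lists, the rule was to name genes that lost or gained a gene-end peak and the 4 that lost plus gained most peaks. SLC67A1, TSSC4, NAP1L4, CARS1 and OSBPL5 are named outside that rule, as are IGFBP1 and IGFBP3. Alternatives were the overlap rule, list length, area, window and competing genes.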

Additional observations from a re-analysis of the deposited data

How the results depend on the processing

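Of 60 alternative values for the lost and gained shares and the gene-end counts at the 10 genes, 54 stayed within the counting interval, or within 1.5 times the count with its order kept. This rule does not take in the whole-list share, which moves too. The FSK lost share with lists of equal length, 38.1% (16 of 42), is among the 54, yet the whole-list share was then 20.7%. With lists of equal length the gene-end comparison reversed, from 9 vehicle and 8 treated genes to 6 vehicle genes against 8 with EZH2i, 8 with CBPi and 7 with FSK. The other exceptions were the EZH2i lost share, 36.8% as reported, 23.8% with lists of equal length (10 of 42 peaks) and 50% with an area of at least 400 (20 of 40; whole list 37.6%), and the FSK lost share, 31.6% as reported and 50% with that area (20 of 40; whole list 30.6%). Requiring 50% overlap or a summit inside the other peak gave 21, 13 and 18 lost peaks with EZH2i, CBPi and FSK, the reported numbers. Among single genes, lists and rank counts, 66 of 482 alternatives moved. KCNQ1 lost 0 of 1 peak with either inhibitor once small peaks were removed, so its 3 of 4 rests on small peaks. IGF2BP2 lost 4, 2 and 3 of 5 peaks with EZH2i, CBPi and FSK at an area of at least 400, against 0 as reported. IGF2 lost 1 of 2 with EZH2i at that area, where the whole-list shares were 37.6%, 28% and 30.6%. CDKN1C kept its remaining peak with both inhibitors, and lost it with FSK, where non-coding genes also competed for peaks. Ranked by width, 2 of the 28 regions were nearer the top and 6 farther with EZH2i, where 6.4% and 8.21% of all regions were. The counts were 1 and 4 with CBPi (6.96% and 7.06%) and 2 and 4 with FSK (7.34% and 8.79%). Median width shifts were -6.94, -1.2 and -0.167 points. The ranking by width or over regions shared by 2 lists, and leaving out MRPL23 or the 3 chromosome 7 genes, were chosen after seeing the data. No paired analysis was possible because each group has 1 peak list, and for the same reason no library could be left out. Depth per library is unknown, so a peak absent from a list was not called, which does not show closed chromatin.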

Other observations

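The other genes around the imprinted 11p15.5 clusters were examined as a list of 15, none of them among the 10 genes above, with 15 vehicle peaks between them. FSK lost 9 of the 15 (60%, 35.7 to 80.2), EZH2i 6 (40%, 19.8 to 64.3) and CBPi 2 (13.3%, 3.74 to 37.9). The area deciles of these peaks give 5.41, 6.72 and 5.48. Beside the whole-list shares of 30.2%, 37.7% and 30.6%, the FSK share lay above and its interval excluded the whole-list value, whereas the other intervals contained theirs. The FSK interval did contain the 36.1% that the area deciles give. Gained peaks were 3 of 12 with EZH2i (25%, 8.89 to 53.2; whole list 6.98%) and 5 of 18 with CBPi (27.8%, 12.5 to 50.9; whole list 10.7%). Both of these intervals excluded the whole-list share. With FSK 1 of 7 was gained (14.3%, 2.57 to 51.3; whole list 15.9%). The peaks are neighbours and not independent, and the comparisons carry no test.

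Most of the FSK losses came from LSP1, a gene of an actin-binding protein of leukocytes on the far side of H19 from IGF2. It had 6 vehicle peaks between 1864762 and 1882750. FSK kept 1 of them, at 1868164 to 1869271, which narrowed from 1108 to 548 bp. CBPi kept all 6 and gained a peak of 1166 bp at 1863415 to 1864580, and EZH2i lost 4 and gained a peak of 670 bp at the same place. Both peaks assigned to TH, which encodes the rate-limiting enzyme of catecholamine synthesis, were lost with FSK and lay 25528 and 31648 bp from the gene. EZH2i and CBPi kept the second of them and each gained a peak beside it, 400 and 406 bp wide. The single TSPAN32 peak was absent from all treated lists. SLC67A1, also known as SLC22A18, kept its internal peak with EZH2i (510 bp) and CBPi (618 bp) from 577 bp in the vehicle list, and lost it with FSK. TRPM5 gained a small internal peak in every treated list, 213 bp wide with EZH2i, 319 bp with CBPi and 216 bp with FSK. Its gene-end peak, in the vehicle and FSK lists only, is the one at the low end of KCNQ1. The gene-end peaks of TSSC4, NAP1L4, CARS1 and OSBPL5 were present in all 4 lists.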
